A study of Homo sapiens with 8 samples.

Results

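Chromatin of A2780 cells resistant to both cisplatin and paclitaxel (dual-resistant cells) was compared with that of control A2780 cells in 4 of the 8 libraries of an ATAC-seq series. A2780 is a long-used line of human ovarian cancer cells, and all groups are labelled WT for genotype. The control libraries 1 and 2 have the treatment label NA, and the dual-resistant libraries 1 and 2 have Cisplatin/Paclitaxel. The other 4 libraries, 2 labelled Cisplatin from cisplatin-resistant cells and 2 labelled Paclitaxel from paclitaxel-resistant cells, entered the same fit and are named below where their values bear on a gene. The sources used here do not say whether drug was present at collection, how many clones each line holds, or whether replicate libraries stem from cultures grown apart, so the p-values measure only the spread between libraries, which may be technical. The comparison took every peak with at least 1 CPM (a library's reads scaled to a common total over peaks) in at least 2 of the 8 libraries, which kept 158698 of 159451 peaks of 1001 bp.

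ATAC-seq uses the transposase Tn5 to insert adapters into DNA that nucleosomes leave open, so that promoters in use and active enhancers give peaks. Cisplatin forms platinum adducts on DNA, which nucleotide excision repair removes. Paclitaxel binds beta-tubulin and stabilises microtubules, and the efflux pump encoded by ABCB1 exports it. Many human promoters lie in stretches dense in CpG dinucleotides, the site of DNA methylation in mammals.

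The libraries held 7693492 and 7769112 reads in peaks in control cells and 8087535 and 9304798 in dual-resistant cells, and a count of 0 allows up to 0.322 to 0.390 CPM (3 reads, counting error only). The log2 values of the 2 libraries of a group correlated at 0.927 in control and 0.926 in dual-resistant cells across peaks, and those of a control with a dual-resistant library at 0.816 to 0.826. Of a short set of ovarian carcinoma markers 0 of 8 measured genes were called. Their summed level was 43.8 and 44.0 CPM in control and 40.4 and 41.8 CPM in dual-resistant libraries. EPCAM and MSLN were the highest of them, PAX8 and KRT7 lay at 0.780 to 2.26 CPM, and MUC16 had no peak at a gene start or end. A longer list of ovarian carcinoma lineage genes had 4 of 19 measured genes lower and 0 higher, namely FOXL2, MECOM, ESR1 and EMX2. That is 21.1%, beside 15.3% of all gene peaks called lower, and 2 were lower in DESeq2. Of the markers of other cells, 3 of 11 fibroblast genes were called higher and 1 lower (summed level 78.9 and 87.1 CPM in control, 98.5 and 105 in dual-resistant), 1 of 5 endothelial genes higher and 1 lower (17.9 and 23.6 against 14.6 and 13.2), and 2 of 10 haematopoietic genes higher (116 and 122 against 128 and 129). The full lists hold 13 fibroblast, 10 endothelial and 18 haematopoietic genes. Those with no tested gene peak, among them FAP, PECAM1, CDH5, VWF and PTPRC, are not counted. None of the markers with a tested gene peak was at 0 in both groups, and their part in the results was not tested.

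On CPM as deposited, more peaks rose than fell in dual-resistant cells away from gene starts and ends, both inside and outside genes. At gene starts and ends more fell than rose. Of all tested peaks 12864 were higher and 8561 lower than in control cells (limma on log2(CPM + 0.5), Benjamini-Hochberg adjusted p under 0.05 over all peaks). These were 8.11% and 5.39% of the peaks, 13.5% in all. Inside genes 4977 peaks rose and 2437 fell, and outside genes 6329 rose and 3129 fell, whereas within 1 kb of a gene start or end 1558 rose and 2995 fell. For 15725 protein-coding genes a gene peak was taken, the strongest peak within 1 kb of a RefSeq start (12573 genes) or, where the start table lists none, within 1 kb of either end of the gene (3152 genes). Of these gene peaks 715 were higher (4.55%) and 2408 lower (15.3%), 19.9% in all, with a median log2 difference of -0.14. Of the genes named below PI15, PDGFC, SALL4, MYC, SLC7A11, CYP1B1, TNFRSF10D, CASP10, MT1E, CDH11, CDH1 and COL3A1 have a gene peak of the second kind. The lower set was mostly shifted by less than 2-fold, with 429 of 2408 past that size against 376 of 715 higher ones. Leaving out a library lowered the counts, most without dual-resistant library 1 for higher peaks (6684) and lower gene peaks (1192), and without control library 1 for lower peaks (5153). The other values past 1.5-fold were 7886 higher peaks without dual-resistant library 2, 5349 lower peaks without dual-resistant library 1, 5465 lower peaks without control library 2, 1211 and 1430 lower gene peaks without control libraries 1 and 2, and 470 higher gene peaks without dual-resistant library 1.

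The balance of the 2 directions moved with the scaling. Higher calls made up 60.0% of the called peaks and 22.9% of the called gene peaks on CPM as deposited, 53% and 40.1% after quantile scaling, 55.9% and 41.8% after cyclic loess scaling, 49.9% and 13.3% after median-ratio scaling, 46.4% and 11.8% in edgeR with TMM and 48.1% and 15% in DESeq2. It moved as well with the library for which the authors' file names a peak. Of the 62827 tested peaks named for a dual-resistant library 9354 rose and 748 fell. Of the 5025 named for a control library 8 rose and 954 fell. Of the 90846 named for a single-resistant library 3502 rose and 6859 fell. The sets differ widely in size, so shares of each set are given as well. Of the peaks named for a dual-resistant library 14.9% rose and 1.19% fell. For control names these shares were 0.159% and 18.99%, and for single-resistant names 3.85% and 7.55%. Among these sets more peaks rose than fell only in that named for a dual-resistant library. Higher calls made up 33.8% of the called peaks named for a single-resistant library, beside 60.0% of all called peaks. The part of this naming in the counts was not tested.

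A small set of peaks was nearly closed in one line and open in the other. At most 3 reads in both control libraries and at least 10 CPM in both dual-resistant libraries were found for 23 peaks, and the reverse for 23 peaks. At 5 CPM these counts were 106 and 58. Most lay away from gene starts and ends, where 2 of the first 23 and 2 of the second 23 were placed. Of all 158698 tested peaks 27781 lay at gene starts or ends, so this placement does not set these peaks apart. Peaks were also ranked by log2 difference among all called peaks with a control or dual-resistant mean of at least 10 CPM. The largest rise lay inside CACNA1C, which encodes a pore subunit of L-type calcium channels (chr12:2519882-2520882, hg38). It held 1.17 and 2.19 CPM in control and 193 and 164 CPM in dual-resistant libraries (log2 difference 6.39, SE 0.24), against a mean of 14.9 CPM in paclitaxel-resistant and 0.848 CPM in cisplatin-resistant cells. Both control values at CACNA1C were above 3 reads, so this peak is in neither set of 23. The largest fall lay on chromosome 1 (chr1:95984639-95985639), 736645 bp from the nearest protein-coding gene PTBP2, which encodes an RNA-binding protein of neurons. It held 39.0 and 40.5 CPM in control and 0.495 and 0 CPM in dual-resistant libraries (log2 difference -5.84, SE 0.20). The 0.495 CPM is also above 3 reads, so this site is in neither set. Both single-resistant lines kept that site open, at means of 36.0 and 29.6 CPM, and dual-resistant cells were below each of them (adjusted p 1.2e-46 and 2.1e-44).

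**Figure D1:**
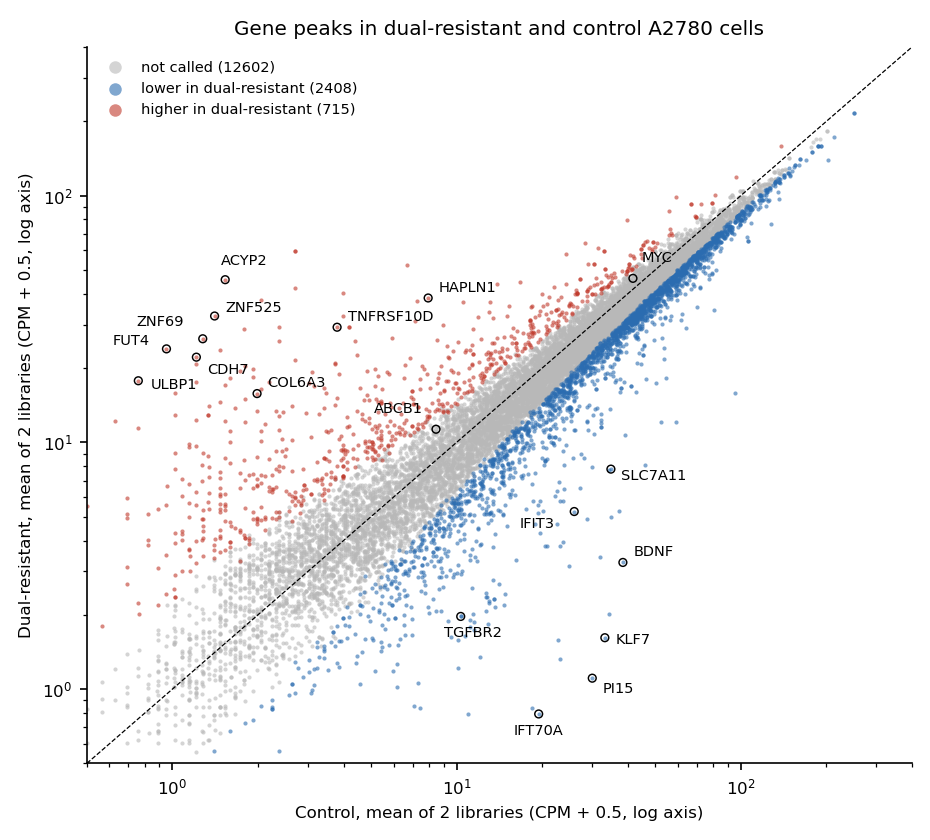
Mean level of each of 15725 gene peaks in control (horizontal) and dual-resistant cells (vertical), as CPM + 0.5 on log axes, with the mean taken over 2 libraries; the dashed line marks equal levels. The 715 higher peaks spread far above the line at low control levels, while most of the 2408 lower peaks lie close below it at high levels.

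The sequence of the promoters went with these directions. Of the 12573 genes with a RefSeq start peak, the 637 promoters with 0 to 4 CpG in the 300-base window (250 bases before the start and 50 after) had 88 higher and 25 lower peaks (13.8% and 3.92%). The 1572 promoters with 40 or more CpG had 31 higher and 276 lower peaks (1.97% and 17.6%). Cyclic loess scaling kept the order of the end classes, with 76 higher and 26 lower among the CpG-poor and 39 higher and 196 lower among the CpG-rich promoters. The median CpG count was 17 for promoters called higher, 28 for those called lower and 26 for all. Level moved with this, since promoters called higher had a median of 5.36 CPM in control cells and those called lower 37.9 CPM, and the part of level was not tested.

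**Figure D2:**
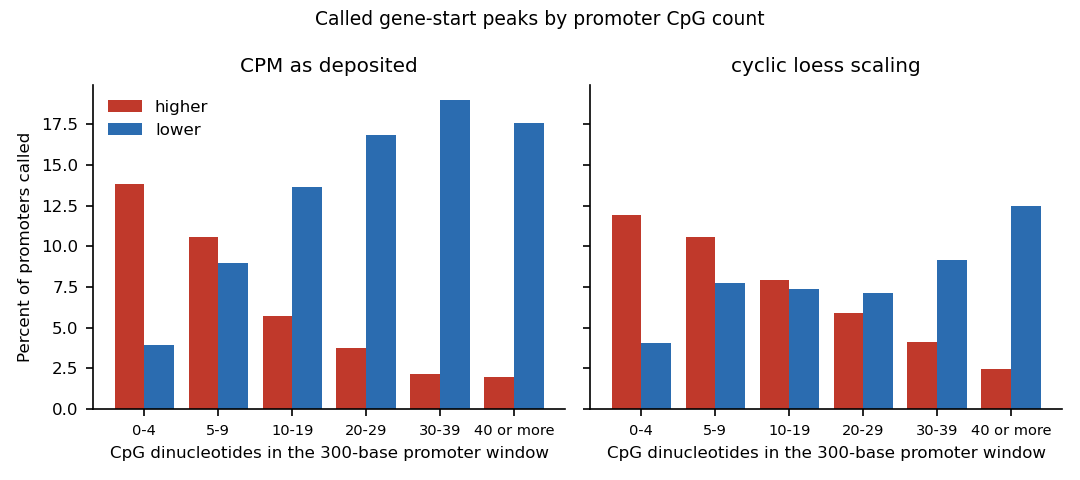
Percent of gene-start peaks called higher (red) or lower (blue) in dual-resistant cells by the number of CpG dinucleotides in the 300-base promoter window, on CPM as deposited (left) and after cyclic loess scaling (right). On deposited CPM the higher share falls from 13.8% in the class with fewest CpG to 1.97% in the class with most, and the lower share goes from 3.92% to 17.6%.

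Motif letters were searched on both strands of the same windows. AP-1 letters (TGANTCA) were present in 9.07% of the promoters called higher, 3.09% of those called lower and 4.38% of all. In promoters with under 10 CpG these shares were 15.4%, 15.2% and 12.9%, and in those with 10 or more they were 6.05%, 2.41% and 3.2%. GC box letters (GGGCGG) were present in 49.6% of the promoters called higher, 78.8% of those called lower and 70.2% of all. In promoters with under 10 CpG these shares were 15.9%, 20% and 19%, and in those with 10 or more they were 65.8%, 82.1% and 77.3%. A match describes the letters and shows no bound factor.

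The promoters below carry the main changes and are shown from 250 bases before the RefSeq start up to the start (RefSeq, GRCh38.p14), 5′ to 3′ on the gene's strand, with CpG in capitals. FUT4 (chr11:94543671-94543920, plus strand) and ULBP1 (chr6:149963693-149963942, plus strand) are shown as CpG-rich promoters that opened, with 23 and 20 CpG in the 250 bases.
FUT4: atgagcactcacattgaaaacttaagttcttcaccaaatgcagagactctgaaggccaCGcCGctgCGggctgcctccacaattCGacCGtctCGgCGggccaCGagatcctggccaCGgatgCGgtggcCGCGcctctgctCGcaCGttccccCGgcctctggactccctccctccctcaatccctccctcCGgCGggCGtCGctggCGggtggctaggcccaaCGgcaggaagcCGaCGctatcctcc
ULBP1: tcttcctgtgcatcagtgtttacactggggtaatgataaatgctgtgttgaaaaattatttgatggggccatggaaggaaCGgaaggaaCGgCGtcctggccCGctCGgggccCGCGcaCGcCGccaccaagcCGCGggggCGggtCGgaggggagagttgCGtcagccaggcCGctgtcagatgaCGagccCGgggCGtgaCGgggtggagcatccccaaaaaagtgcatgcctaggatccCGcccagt

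ZNF525 (chr19:53365455-53365704, plus strand) and ZNF701 (chr19:52570037-52570286, plus strand) are shown as a pair because these 2 zinc finger promoters of chromosome 19 are alike in sequence and went in opposite directions. They share identical runs of 8 or more bases over 141 of 250 bases, the longest of 24 bases. Reads that map to both could have been split by the authors' counting.
ZNF525: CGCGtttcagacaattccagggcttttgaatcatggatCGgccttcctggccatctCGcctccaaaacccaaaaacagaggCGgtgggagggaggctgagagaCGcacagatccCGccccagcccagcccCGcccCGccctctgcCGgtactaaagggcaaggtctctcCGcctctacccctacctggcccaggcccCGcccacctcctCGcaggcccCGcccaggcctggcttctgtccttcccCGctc
ZNF701: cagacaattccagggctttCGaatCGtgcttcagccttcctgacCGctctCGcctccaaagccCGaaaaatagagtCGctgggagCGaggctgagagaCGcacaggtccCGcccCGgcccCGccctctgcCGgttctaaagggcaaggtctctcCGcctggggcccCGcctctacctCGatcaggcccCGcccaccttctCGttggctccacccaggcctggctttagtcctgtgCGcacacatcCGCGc

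ZNF69 (chr19:11887532-11887781, plus strand) and CDH7 (chr18:65750002-65750251, plus strand) are shown as promoters that opened beyond the level of both single-resistant lines. They have 7 and 6 CpG in the 250 bases and 8 and 7 in the 300-base window. IFIT3 (chr10:89327747-89327996, plus strand), with 5 CpG, is shown for the interferon-stimulated genes that fell. Its 300-base window holds the letters of the interferon-stimulated response element (ISRE, searched as GAAA, any 2 bases, GAAA on either strand), as do 2.68% of all promoters.
ZNF69: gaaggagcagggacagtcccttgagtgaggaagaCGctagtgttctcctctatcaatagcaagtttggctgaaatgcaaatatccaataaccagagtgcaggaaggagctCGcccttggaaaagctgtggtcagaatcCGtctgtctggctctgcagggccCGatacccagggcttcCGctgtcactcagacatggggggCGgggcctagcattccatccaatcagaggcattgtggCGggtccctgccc
CDH7: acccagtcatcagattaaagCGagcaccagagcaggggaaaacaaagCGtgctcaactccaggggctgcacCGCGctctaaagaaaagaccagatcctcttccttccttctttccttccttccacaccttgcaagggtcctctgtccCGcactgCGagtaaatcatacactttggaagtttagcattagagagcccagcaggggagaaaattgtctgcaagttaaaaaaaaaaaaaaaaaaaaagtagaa
IFIT3: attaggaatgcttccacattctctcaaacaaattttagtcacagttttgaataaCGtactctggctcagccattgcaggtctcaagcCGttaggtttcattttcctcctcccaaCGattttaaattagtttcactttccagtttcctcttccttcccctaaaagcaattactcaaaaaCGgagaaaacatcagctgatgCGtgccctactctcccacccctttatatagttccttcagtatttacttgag

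Promoters that opened belonged to a glycosyltransferase, an immune ligand and several zinc finger genes. The gene peak of FUT4, a fucosyltransferase that makes Lewis x type glycans, held 0.520 and 0.386 CPM in control and 24.5 and 22.4 CPM in dual-resistant libraries (log2 difference 4.65, SE 0.22, adjusted p 1.4e-35). ULBP1, a ligand of the NKG2D receptor of natural killer cells, held 0.260 and 0.257 CPM in control and 18.3 and 16.2 CPM in dual-resistant libraries (log2 difference 4.55, SE 0.23, adjusted p 1.2e-33). Control levels of both lay at or near the 3-read floor, and the log2 differences on the log2(CPM + 0.5) scale understate such changes. Paclitaxel-resistant cells stood higher than dual-resistant cells at ULBP1 (mean 39.4 CPM, adjusted p 3.0e-05) and cisplatin-resistant cells lower (8.93 CPM, adjusted p 0.00057).

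Several promoters were open in dual-resistant cells beyond every other line. ZNF69 held 1.30 and 0.257 CPM in control and 20.4 and 31.2 CPM in dual-resistant libraries (log2 difference 4.46, SE 0.43), with means of 0.117 CPM in cisplatin-resistant and 1.22 CPM in paclitaxel-resistant cells. CDH7, a classical cadherin of cell adhesion, held 1.30 and 0.129 CPM in control and 22.8 and 20.5 CPM in dual-resistant libraries (log2 difference 4.38, SE 0.42), with means of 0.459 and 0.935 CPM in the cisplatin- and paclitaxel-resistant cells. COL6A3, a chain of collagen VI, rose from 1.04 and 1.93 CPM to 16.4 and 14.1 CPM (log2 difference 3.02, SE 0.41), with 0.234 and 1.34 CPM in the single-resistant cells. All 3 were higher in dual-resistant than in cisplatin-resistant cells (adjusted p at most 2.6e-16 for these genes) and than in paclitaxel-resistant cells (adjusted p at most 1.1e-09). As a background, 36.2% of gene peaks differed between dual- and cisplatin-resistant cells and 31.8% between dual- and paclitaxel-resistant cells. At 60.8% of gene peaks the 2 dual-resistant values did not overlap the 2 control values, so the lack of overlap at these genes sets none of them apart.

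Other openings were shared with paclitaxel-resistant cells. ACYP2, an acylphosphatase, rose from 0.780 and 1.29 CPM to 48.1 and 42.1 CPM (log2 difference 4.91, SE 0.21), beside 36.8 CPM in paclitaxel-resistant and 3.95 CPM in cisplatin-resistant cells. ZNF525 rose from 1.30 and 0.515 CPM to 32.5 and 31.5 CPM (log2 difference 4.59, SE 0.23), beside 25.5 and 4.69 CPM. HAPLN1, a link protein of hyaluronan matrix, rose from 7.80 and 7.08 CPM to 38.1 and 37.8 CPM (log2 difference 2.28, SE 0.18), beside 49.2 and 1.89 CPM. Dual-resistant cells did not differ from paclitaxel-resistant cells past the threshold at these 3 genes (adjusted p 0.35, 0.33 and 0.14, log2 differences 0.29, 0.32 and -0.37), which does not show that the levels were equal. RARB, a retinoic acid receptor, rose from 6.89 and 6.44 CPM to 32.8 and 28.5 CPM and stood below its mean of 68.9 CPM in paclitaxel-resistant cells (adjusted p 2.5e-09).

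The deepest losses at gene peaks left little signal. PI15, a secreted peptidase inhibitor, fell from 32.4 and 26.6 CPM to 0.247 and 0.967 CPM (log2 difference -4.83, SE 0.27, adjusted p 1.7e-30). IFT70A, an intraflagellar transport protein of cilia, fell from 16.6 and 21.2 CPM to 0.371 and 0.215 CPM (log2 difference -4.61, SE 0.29). KLF7, a Krüppel-like transcription factor, fell from 32.6 and 32.8 CPM to 0.618 and 1.61 CPM (log2 difference -4.43, SE 0.25). The dual-resistant values at IFT70A were at or under the 3-read floor, and those at PI15 and KLF7 ranged from 0.247 to 1.61 CPM.

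BDNF, a neurotrophin that signals through the kinase NTRK2, fell from 36.1 and 39.8 CPM to 3.59 and 1.93 CPM (log2 difference -3.61, SE 0.21). The zinc finger genes ZNF613, ZNF701 and ZNF841 of chromosome 19 fell by 4.46, 3.84 and 3.80 on the log2 scale. ZNF701 went from 21.8 and 22.5 CPM in control to 0.989 and 1.18 CPM in dual-resistant libraries. Cisplatin-resistant cells kept these genes open, with means of 56.5 CPM at PI15, 25.3 CPM at KLF7, 30.0 CPM at BDNF and 22.9 CPM at ZNF701. Paclitaxel-resistant cells had 0.519, 2.48, 4 and 1.29 CPM there. Of these 4, KLF7 was lower in dual-resistant than in paclitaxel-resistant cells past the threshold (adjusted p 0.0032).

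FOXL2, a factor of ovarian granulosa cells, and HGF, the ligand of the MET receptor, fell in dual-resistant cells to levels under both single-resistant lines. FOXL2, whose peak is shared with FOXL2NB, held 32.8 and 30.5 CPM in control and 10.8 and 11.4 CPM in dual-resistant libraries (log2 difference -1.47, SE 0.14), with means of 32.0 and 35.6 CPM in the cisplatin- and paclitaxel-resistant cells. HGF fell from 45.8 and 46.3 CPM to 18.2 and 16.9 CPM (log2 difference -1.37, SE 0.12), with 38.0 and 40.5 CPM in the others. Dual-resistant cells were below both lines at FOXL2 (adjusted p 1.1e-16 and 1.3e-18) and at HGF (adjusted p 7.0e-13 and 4.6e-14).

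**Figure D3:**
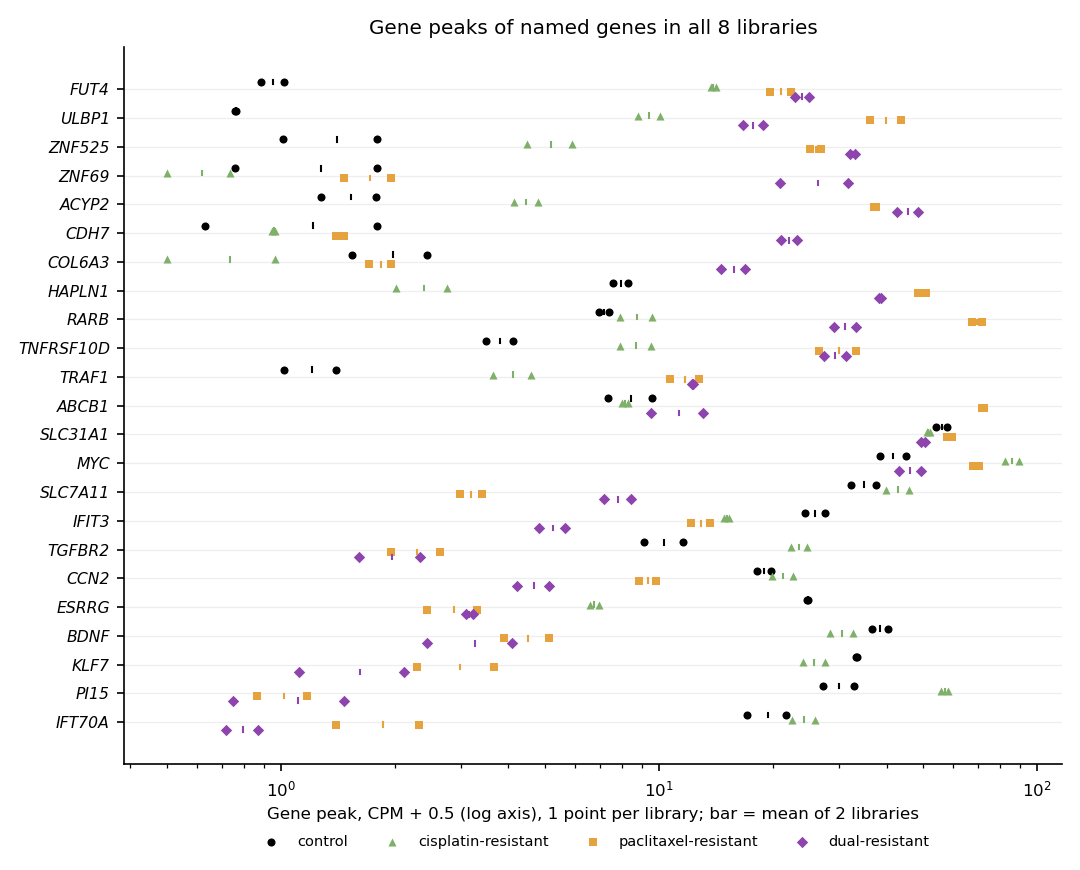
Gene peak level (CPM + 0.5, log axis) of 23 named genes in all 8 libraries, 1 point per library and a bar at the mean of 2. ZNF69, CDH7 and COL6A3 are high in the dual-resistant libraries alone, while PI15, KLF7 and BDNF are low in both the dual- and the paclitaxel-resistant libraries.

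Feedback genes of the ERK kinase cascade, the growth signal below receptor tyrosine kinases, included no higher call. Of 20 measured genes 10 fell and 0 rose, with a median log2 difference of -0.29 beside -0.14 over all gene peaks and 15.3% called lower among them. SPRY1, a Sprouty inhibitor of receptor signalling, fell from 44.5 and 41.1 CPM to 20.03 and 21 CPM (log2 difference -1.04, SE 0.14). DUSP6, the ERK phosphatase, fell from 44.2 and 41.7 CPM to 26.1 and 25.6 CPM (log2 difference -0.72, SE 0.15), and paclitaxel-resistant cells were lower still at 5.13 CPM. On the list 8 genes were lower and 1 higher after quantile scaling, 8 and 2 after cyclic loess scaling, and 6 and 0 without control library 2.

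Receptor tyrosine kinases and their ligands had 15 of 50 genes lower and 2 higher, with a median of -0.40 (14 and 2 after quantile, 13 and 2 after cyclic loess scaling). The higher count was 1 without control library 1 or either dual-resistant library. KDR, a VEGF receptor, fell from 9.23 and 12.0 CPM to 3.09 and 2.58 CPM, and MET fell from 6.76 and 7.98 CPM to 2.97 and 2.47 CPM. The 2 that rose were PDGFC, a platelet-derived growth factor (1.43 and 4.38 CPM to 13.7 and 12.8 CPM), and EGF (0.260 and 2.32 CPM to 3.96 and 3.44 CPM). PDGFC stood above both single-resistant lines (adjusted p 0.0003 and 1.2e-12).

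Interferon-stimulated genes, which cells switch on through STAT and IRF factors, had 13 of 37 lower and 3 higher, with a median of -0.28 (12 and 3 after quantile or cyclic loess scaling). IFIT3, an antiviral effector, fell from 27.0 and 23.8 CPM to 4.33 and 5.16 CPM (log2 difference -2.31, SE 0.19) and was below both the cisplatin-resistant mean of 14.6 CPM and the paclitaxel-resistant mean of 12.4 CPM (adjusted p 3.5e-11 and 1.8e-08). IRF1, a transcription factor of the response, fell from 49.1 and 56.9 CPM to 20.9 and 21.5 CPM. IFI16, a sensor of DNA, went the other way from 2.60 and 3.35 CPM to 15.8 and 14.7 CPM (log2 difference 2.19, SE 0.33), and BST2 and ISG20 rose by 0.60 and 0.55. The 3 higher calls became 1 without control library 1 or dual-resistant library 1 and 1 in DESeq2. Of the 27 members with a start window 18 held ISRE letters, 5 of the 10 lower ones and 11 of the 14 not called.

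Genes of class I antigen presentation had 6 of 19 lower and 1 higher, and this count was 2 and 1 after quantile or cyclic loess scaling and 3 and 1 without either control library. TAP1 and PSMB9, a peptide transporter and an immunoproteasome subunit, share a peak that fell from 50.8 and 46.9 CPM to 35.9 and 37.2 CPM. PSMB8, another such subunit, rose from 8.58 and 9.78 CPM to 17.9 and 19.8 CPM (log2 difference 1.0, SE 0.17). Among the 8 NKG2D ligands ULBP1 and ULBP3 rose and MICA fell. ULBP3 went from 15.5 and 14.5 CPM to 28.2 and 24.6 CPM, and MICA from 39.3 and 46.9 CPM to 33.0 and 34.7 CPM. The MICA call was lost after quantile or cyclic loess scaling and without control library 2 or either dual-resistant library.

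Developmental transcription factors moved in both directions, with more losses. Among 72 homeobox genes outside the HOX clusters 24 fell and 8 rose, with a median of -0.38 (24 and 9 after quantile, 22 and 9 after cyclic loess scaling), and the higher count was 5 without control library 2 or dual-resistant library 2 and 5 in edgeR or DESeq2. TLX3 fell from 26.6 and 30.0 CPM to 4.70 and 4.08 CPM (log2 difference -2.56, SE 0.21), and POU3F3, a POU factor of neural development, rose from 3.77 and 3.99 CPM to 23 and 27.4 CPM (log2 difference 2.55, SE 0.17). PAX6, an eye and brain factor, rose from 2.86 and 3.60 CPM to 23 and 17.8 CPM.

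HOX genes had 11 of 34 lower and 2 higher, and 4 to 6 lower when any 1 library was left out (control library 1 or dual-resistant library 1, 4; control library 2 or dual-resistant library 2, 6). After subtraction of the median of each 5 Mb window 5 were lower and 0 higher, and in DESeq2 6 and 2. HOXD10 rose from 9.88 and 8.50 CPM to 22.1 and 23.9 CPM and stood above both single-resistant lines (adjusted p 5.3e-12 and 2.8e-13), and its call against control was lost with 5 Mb medians subtracted (log2 difference 0.47, adjusted p 0.13).

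GATA, FOX and TBX factors had 10 of 27 lower and 1 higher (8 and 1 after quantile or cyclic loess scaling, 6 and 1 with 5 Mb medians subtracted), with 6 lower without control library 2 and 5 without dual-resistant library 1. GATA2 fell from 40.03 and 31.8 CPM to 20.3 and 22.2 CPM, with means of 36.3 and 50.1 CPM in the cisplatin- and paclitaxel-resistant cells. Nuclear receptors had 9 of 42 lower and 5 higher, with 4 and 3 without control library 1, 6 and 4 without control library 2 and 2 and 4 without dual-resistant library 1, where the balance turned. ESRRG, an orphan receptor related to the oestrogen receptors, fell from 24.3 and 24.2 CPM to 2.72 and 2.58 CPM. NR2F2, also an orphan receptor, rose from 0.780 and 3.09 CPM to 8.41 and 9.03 CPM.

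Stem cell and oncofetal genes had 8 of 20 lower and 0 higher (7 lower after quantile or cyclic loess scaling, with 1 and 0 higher), and 5, 4 and 4 lower without control library 1, control library 2 and dual-resistant library 1. LIN28B, an RNA-binding protein that blocks let-7 processing, fell from 30.2 and 35.5 CPM to 16.7 and 20.3 CPM. SALL4, a zinc finger factor of pluripotent cells, fell from 33.0 and 35.3 CPM to 17.4 and 19.5 CPM. MYC, with 44.6 and 37.8 CPM in control and 48.7 and 42.7 CPM in dual-resistant libraries, did not pass the test (adjusted p 0.37) but did after quantile and cyclic loess scaling (log2 difference 0.31 and 0.32).

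In the lists of unfolded protein response and of glutathione and NRF2 target genes, all members called on deposited CPM were lower. Genes of the unfolded protein response and its factor ATF4 had 8 of 19 lower and 0 higher, with 5 lower and 1 or 2 higher after quantile or cyclic loess scaling, and 5 lower without control library 2 or dual-resistant library 1. CHAC1, which degrades glutathione, fell from 49.1 and 55.9 CPM to 23.7 and 28.1 CPM (log2 difference -1.01, SE 0.12). DDIT4, an inhibitor of mTOR signalling, fell from 80.8 and 76.5 CPM to 45.5 and 50.4 CPM and was below both single-resistant lines (adjusted p 1.1e-19 and 2.1e-10).

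Glutathione and NRF2 target genes had 7 of 28 lower and 0 higher, with 5 lower after quantile or cyclic loess scaling and 3 without control library 1 or dual-resistant library 1. The 7 include KEAP1 and NFE2L2, and the aldo-keto reductases that rose, given below, are on another list. SLC7A11, the cystine importer that feeds glutathione synthesis, fell from 31.7 and 37.1 CPM to 7.91 and 6.66 CPM (log2 difference -2.16, SE 0.18). It stood at 42.4 CPM in cisplatin-resistant and 2.69 CPM in paclitaxel-resistant cells, and dual-resistant cells differed from both (adjusted p 4.4e-22 and 9.8e-09). GSTP1, a glutathione transferase, held 21.4 and 21.6 CPM in control and 19.4 and 22.1 CPM in dual-resistant libraries and did not pass the test.

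Aldo-keto reductases of steroid and carbonyl metabolism rose, while the aryl hydrocarbon receptor AHR and 3 of its known targets fell. AKR1C1 went from 2.21 and 1.29 CPM to 4.95 and 6.99 CPM, AKR1C2 from 1.56 and 0.515 CPM to 6.80 and 4.51 CPM, and AKR1C3 from 1.04 and 2.57 CPM to 3.71 and 5.05 CPM. These neighbouring genes are alike in sequence, so reads could be split between them, and the AKR1C1 call was lost without control library 2 or dual-resistant library 2 (adjusted p 0.0538 and 0.0738). AHR fell from 4.16 and 5.66 CPM to 1.24 and 0.860 CPM, and CYP1A1, CYP1B1 and AHRR fell by 0.75, 0.43 and 0.75 on the log2 scale. In all 3 of 14 genes of the list rose and 4 fell, 1 and 4 without dual-resistant library 2 and 2 and 2 without control library 2.

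Death receptor genes opened in part. TNFRSF10D, a decoy receptor for the ligand TRAIL, rose from 2.99 and 3.60 CPM to 30.8 and 26.8 CPM (log2 difference 2.95, SE 0.19), and TNFSF10, which encodes TRAIL, rose from 5.33 and 4.38 CPM to 9.64 and 12.8 CPM. CASP10, an initiator caspase, rose from 1.17 and 1.93 CPM to 8.66 and 10.5 CPM, and TNFRSF1A was the fourth higher member. CASP4, an inflammatory caspase, fell from 19.6 and 19.7 CPM to 12.2 and 11.3 CPM. In all 4 of 22 genes of the list rose and 3 fell, which turned to 3 and 4 after median-ratio scaling and 3 and 7 in edgeR. The 3 lower calls became 1 after quantile scaling, without control library 1 and without either dual-resistant library, and the 4 higher ones 2 without control library 2 or dual-resistant library 2. BCL2 fell from 8.32 and 7.72 CPM to 3.21 and 5.48 CPM (log2 difference -0.85, SE 0.26), a call lost without either control library and without dual-resistant library 1 (adjusted p 0.113, 0.0589 and 0.362) and in DESeq2 (adjusted p 0.0597). The TNFSF10 call was lost without control library 2 or dual-resistant library 2 (adjusted p 0.0503 and 0.108).

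Among genes tied to the handling of the 2 drugs, ABCB1 and the copper transporters did not pass the test, while ABCG2, ERCC1, TUBB2B and KIF1A fell. ABCB1 held 9.10 and 6.82 CPM in control and 9.03 and 12.6 CPM in dual-resistant libraries (log2 difference 0.41, SE 0.18, adjusted p 0.11), far below the mean of 71.6 CPM in paclitaxel-resistant cells (adjusted p 4.9e-25). Without dual-resistant library 1 the ABCB1 difference from control passed the test (log2 difference 0.64, adjusted p 0.041). ABCG2, another efflux pump, fell from 18.1 and 21.8 CPM to 8.78 and 7.09 CPM (log2 difference -1.28, SE 0.20). Of 14 efflux transporter genes 4 fell and 0 rose (2 and 1 after quantile or cyclic loess scaling, 2 and 1 without control library 2, 2 and 2 without dual-resistant library 1). ABCC2 has no gene peak.

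The copper transporters linked to platinum uptake and export, SLC31A1, ATP7A and ATP7B, did not pass the test, with log2 differences of -0.16, -0.25 and -0.03 and SEs of 0.10, 0.17 and 0.11. With 5 Mb medians subtracted SLC31A1 and ATP7A were called lower (log2 differences -0.37 and -0.61, adjusted p 0.0137 and 0.0129), and the list they belong to had 1 higher and 3 lower. Of 17 platinum and copper genes COX17 and MT1E were called higher and 0 lower. Both calls were lost without control library 1 or dual-resistant library 1 and in DESeq2, 1 was left without control library 2 or dual-resistant library 2, and after median-ratio scaling or in edgeR 1 was higher and 2 lower. Of 29 crosslink and excision repair genes 5 fell, 17.2% and thus near the 15.3% lower over all gene peaks. Among them was ERCC1, a nuclease subunit of excision repair, which went from 61.7 and 60.9 CPM to 44.0 and 41.5 CPM (log2 difference -0.52, SE 0.10). The ERCC1 call was lost with 5 Mb medians subtracted (log2 difference -0.28, adjusted p 0.165). After quantile scaling 2 of the 29 were lower and 2 higher, and after median-ratio scaling 8 were lower. The lower count was 3 without dual-resistant library 2 and 2 without any 1 of the other 3 libraries.

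Among 36 tubulin and microtubule genes 0 rose and 7 fell (19.4%, near the 15.3% lower over all gene peaks). This was 3 after quantile, 2 after cyclic loess and 14 after median-ratio scaling, and 2 without control library 1, 4 without dual-resistant library 1 and 9 without dual-resistant library 2. KIF1A, a neuronal kinesin, fell from 21.8 and 23.3 CPM to 5.19 and 5.37 CPM (log2 difference -2.0, SE 0.25). TUBB2B, a beta-tubulin, fell from 11.0 and 14.7 CPM to 5.81 and 5.70 CPM (log2 difference -1.08, SE 0.21). TUBB3 (15.1 and 16.1 CPM against 16.4 and 17 CPM) and STMN1 (33.5 and 33.0 CPM against 24.4 and 28.8 CPM) did not pass the test, and STMN1 did after median-ratio scaling (log2 difference -0.40).

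Cadherins and matrix genes had higher calls at a larger share than the 4.55% of all gene peaks. Of 13 cadherins with a gene peak 4 rose and 0 fell, namely CDH7, CDH11, CDH10 and CDH2 (median 0.28, 5 higher after quantile or cyclic loess scaling, 2 in DESeq2 and 2 without control library 2). The CDH10 call was lost without control library 2 (adjusted p 0.0543). CDH2, or N-cadherin, rose from 7.54 and 8.24 CPM to 13.5 and 12.4 CPM, and CDH1, or E-cadherin, with 1.30 and 1.29 CPM against 2.23 and 1.5 CPM, did not pass the test. Collagens and other matrix genes had 7 of 44 higher and 5 lower, with 6 and 6 after median-ratio scaling or in edgeR, 12 and 9 with 5 Mb medians subtracted and 8 and 3 without control library 2. COL3A1 rose from 1.04 and 0.901 CPM to 3.71 and 6.02 CPM, and FBN2, a microfibril protein, from 7.80 and 4.89 CPM to 22.1 and 20.8 CPM.

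POSTN, a matricellular protein, fell from 5.59 and 5.79 CPM to 0.495 and 0.537 CPM. Genes of the mesenchymal transition split evenly, with 6 of 30 higher and 6 lower (7 and 6 after quantile, 7 and 5 after cyclic loess scaling, 2 and 6 in DESeq2, 1 and 4 without control library 1, 5 and 4 without control library 2, 3 and 7 without dual-resistant library 2). TGFBR2, a TGF-beta receptor, fell from 11.0 and 8.62 CPM to 1.11 and 1.83 CPM, and CCN2, a YAP and TGF-beta target, from 19.2 and 17.6 CPM to 3.71 and 4.62 CPM. CCN2 was below both single-resistant lines (adjusted p 3.4e-17 and 3.1e-05). Potassium and calcium channel genes had 11 of 31 lower and 0 higher (12 after quantile or cyclic loess scaling, 7 in DESeq2, 6 with 5 Mb medians subtracted), with 7 lower without either control library or dual-resistant library 2 and 5 without dual-resistant library 1. The bars by gene list show how these shares stand beside those over all gene peaks.

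**Figure D4:**
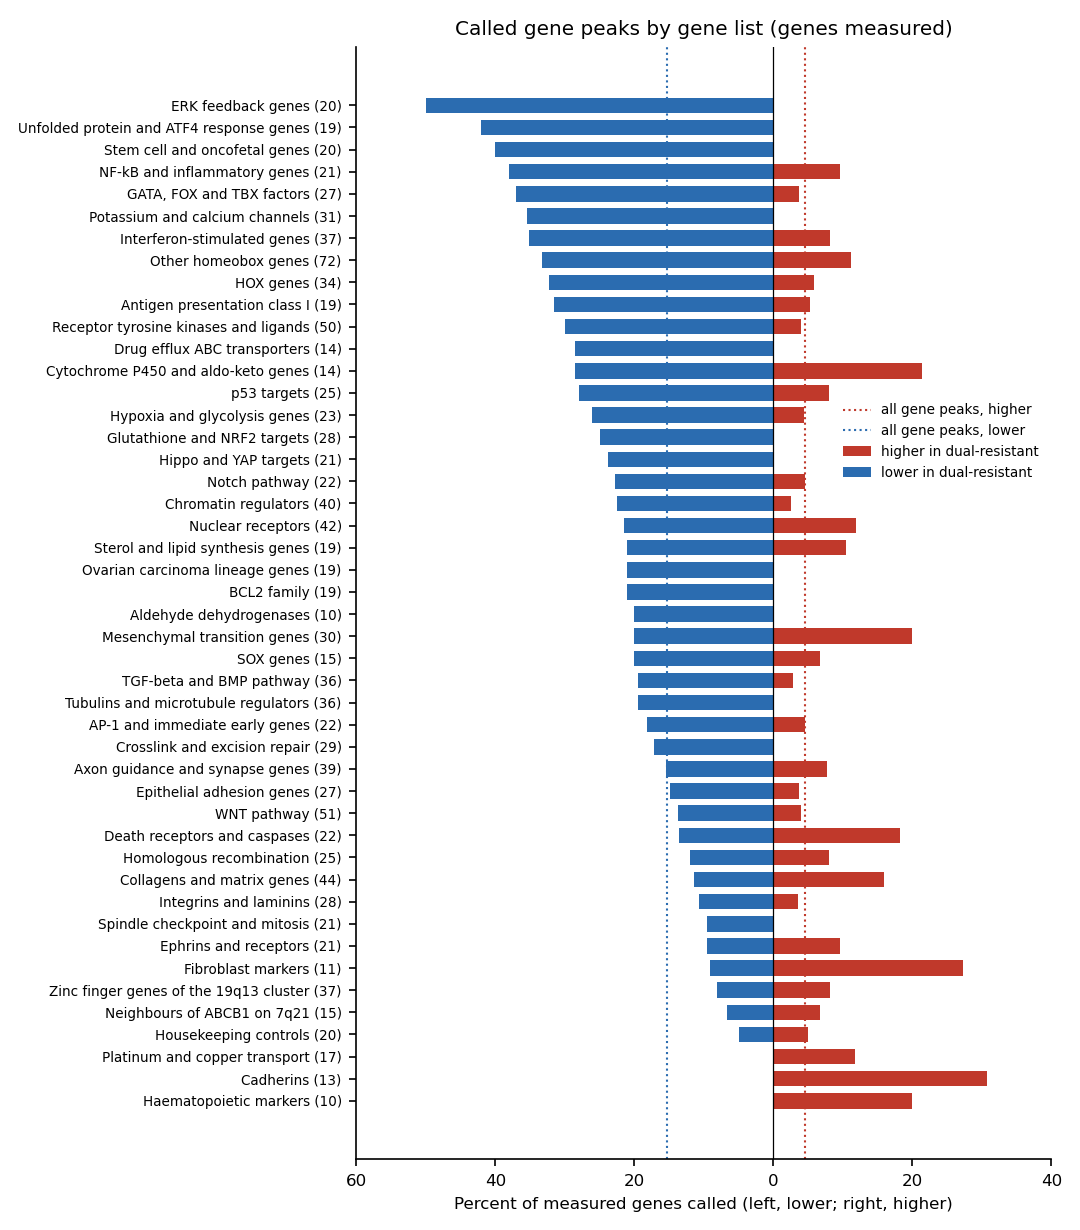
Percent of the measured genes of each list shown, all with at least 10 genes, whose gene peak was called lower (blue, left) or higher (red, right) in dual-resistant cells on CPM as deposited, with the number measured in brackets and dotted lines at the shares over all gene peaks (15.3% lower, 4.55% higher). ERK feedback genes have the highest lower share, 10 of 20, and cadherins 4 of 13 higher and 0 lower.

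Distal peaks moved in blocks around some genes. The distances given first below were chosen after the values were seen, and counts within 3000 kb stand beside them. Around SPTBN1, which encodes a spectrin of the membrane skeleton, 152 of 170 tested peaks within 250 kb of its gene peak rose and 0 fell, with a median log2 difference of 2.0, and within 3000 kb 187 of 363 rose and 2 fell. The start peak of SPTBN1 itself held 25.7 and 31.4 CPM in control and 28.2 and 31.0 CPM in dual-resistant libraries and did not pass the test (log2 difference 0.05, SE 0.13). Of the 12 peaks at gene starts or ends in that stretch 6 rose. The median difference of the stretch from control was 1.42 in paclitaxel-resistant and 0.24 in cisplatin-resistant cells, which were measured against the same control libraries.

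Near several other genes most peaks were higher in dual-resistant cells than in both single-resistant lines. Within 250 kb of SIPA1L2, a Rap GTPase activator gene, 101 of 129 peaks rose over control and 0 fell, and 115 and 125 were higher than in cisplatin- and paclitaxel-resistant cells; within 3000 kb 201 of 695 rose and 12 fell. Within 250 kb of COL6A3 67 of 100 rose and 0 fell, and 87 and 77 were higher than in those lines. Within 1000 kb of it 74 of 205 rose and 7 fell, and within 3000 kb 79 of 383 and 13. Within 500 kb of SEMA6D, a semaphorin of axon guidance, 38 of 53 rose and 0 fell, and 47 and 49 were higher. Within 3000 kb 60 of 219 rose and 10 fell. Within 250 kb of CDH7, whose promoter is shown above, 15 of 26 rose and 0 fell, and 22 and 22 were higher. Within 3000 kb of it 72 of 138 rose and 8 fell.

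Within 1000 kb of CDH11, a cadherin of mesenchymal cells, 42 of 49 rose and 0 fell, and 44 and 43 were higher than in cisplatin- and paclitaxel-resistant cells, and within 3000 kb 81 of 405 rose and 17 fell. The CDH11 gene peak itself rose from 2.47 and 0.901 CPM to 6.55 and 9.56 CPM (log2 difference 2.05, SE 0.40), a call lost in DESeq2 (adjusted p 0.328), and did not differ past the threshold from its mean of 4.25 CPM in cisplatin-resistant cells (adjusted p 0.087). The 5 Mb window beside it, chr16:60000001-65000000, had the highest median of the 590 windows with at least 30 peaks (2.10, with 55 of 77 peaks higher and 0 lower). In all 38 windows had a median above 0.5 and 3 below -0.5. Copy number was not analysed here.

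Losses in blocks were fewer. Around ESRRG 59 of 73 peaks within 500 kb fell and 0 rose, with medians of -2.23 in dual-resistant, -1.64 in cisplatin-resistant and -1.99 in paclitaxel-resistant cells against the same control libraries. Within 3000 kb 115 of 307 fell and 2 rose. The window chr1:215000001-220000000 that holds it had the lowest median, -1.02, with 106 of 229 peaks lower. Around PI15 56 of 70 peaks within 250 kb fell and 0 rose, with a median of -2.23 in dual-resistant and -2.29 in paclitaxel-resistant but 0.96 in cisplatin-resistant cells, and within 3000 kb 69 of 225 fell and 3 rose. FERMT2, an integrin activator, had 45 of its 61 distal peaks lower (nearest gene, within 100 kb) while its start peak held 23.7 and 25.1 CPM in control and 23.2 and 25.6 CPM in dual-resistant libraries.

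Among peaks within 3000 kb of the microRNA gene MIR137 on chromosome 1 more fell than rose in dual-resistant cells, also against both single-resistant lines. MiR-137 is known from neuronal differentiation and is transcribed beside MIR2682. The peak that holds the MIR2682 hairpin and lies beside that of MIR137 (chr1:98044743-98045743) held 10.7 and 8.62 CPM in control and 0.247 and 1.18 CPM in dual-resistant libraries (log2 difference -3.17, SE 0.29), with means of 7.39 and 9.07 CPM in cisplatin- and paclitaxel-resistant cells. Within 500 kb of MIR137 14 of 51 peaks fell and 0 rose. The median log2 difference from control there was -0.64 in dual-resistant, 0.33 in cisplatin-resistant and -0.05 in paclitaxel-resistant cells. Within 3000 kb 83 of 289 peaks fell and 9 rose, and 127 and 88 were lower than in the cisplatin- and paclitaxel-resistant cells. The site with the deepest loss, named above with PTBP2, lies within those 3000 kb but outside the 500 kb. The mature sequences of both microRNAs (RefSeq, GRCh38.p14) are shown with the seed, bases 2 to 8, in capitals, and their 4 seeds differ.
hsa-miR-137-3p: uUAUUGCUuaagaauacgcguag
hsa-miR-137-5p: aCGGGUAUucuuggguggauaau
hsa-miR-2682-5p: cAGGCAGUgacuguucagacguc
hsa-miR-2682-3p: cGCCUCUUcagcgcugucuucc

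**Figure D5:**
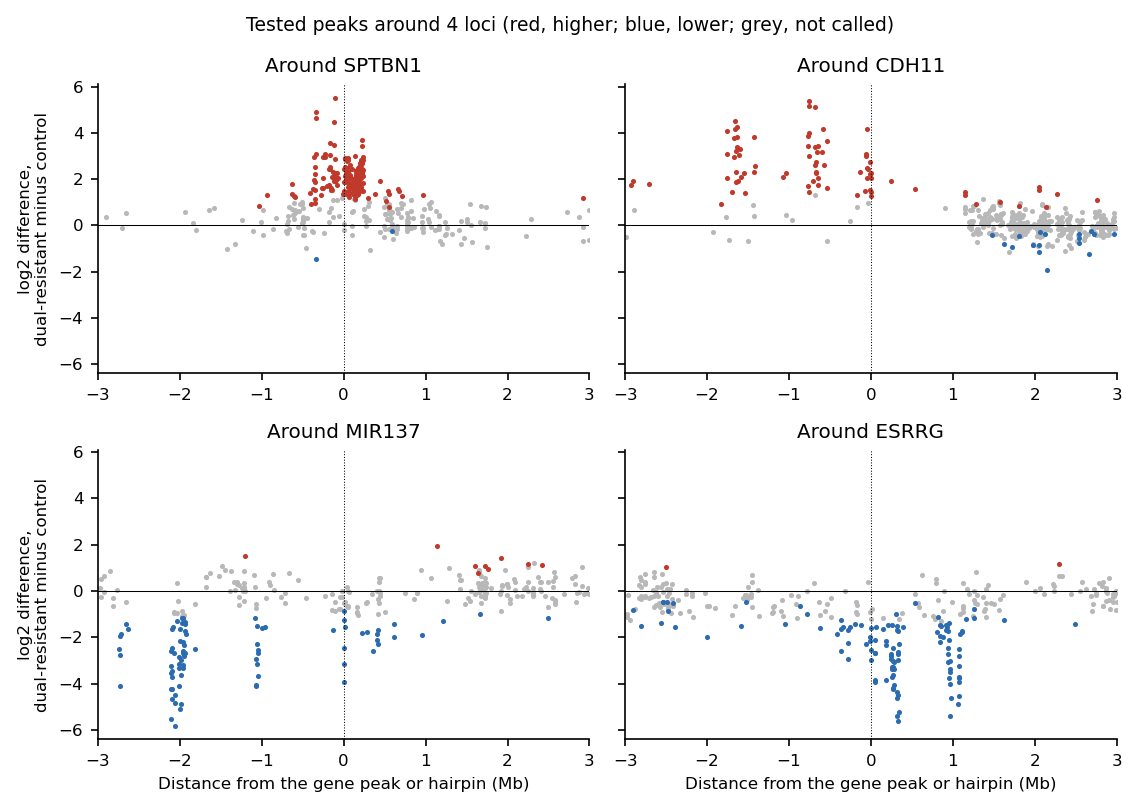
Log2 difference between dual-resistant and control cells of each tested peak within 3 Mb of the gene peak of SPTBN1, CDH11 and ESRRG and of the MIR137 hairpin, by distance from it, 1 point per peak. Called peaks lie above 0 around SPTBN1 and beside CDH11 and below 0 around ESRRG and in separate clusters around MIR137, the deepest of them on one side.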

How the data were processed

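ATAC-seq was run on 8 libraries, 2 per line. The authors deposited a matrix of CPM values (reads scaled to a common total over peaks) over 159451 peaks of 1001 bp. Bowtie2, Picard, MACS2 and hg38 are named per the submitters' processing notes. Not given in the sources used here are versions, the treatment of multi-mapping reads, any shift for Tn5 and the way peak sets were combined. All values (100%) came out as whole reads within 0.01 read, so the reads in peaks of each library were recovered, and counting error sets the precision of low peaks.

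The 158698 peaks that reached 1 CPM in 2 or more of the 8 libraries were tested on log2(CPM + 0.5) with limma 3.58.1 in R 4.3.3, with a trend, all 4 groups in 1 fit, and Benjamini-Hochberg adjustment over all tested peaks at 0.05. The log2 difference understates the change of low peaks. Reads were simulated with 200 changed peaks, each at a mean of 3 CPM or more. Of these, 93% of 4-fold and 5% of 2-fold changes were recovered, with 3 false calls among 158698 peaks. With so few changed peaks the adjustment is stricter than in the data, where 21425 peaks were called. The shares therefore do not give the recovery in the data. Alternatives were edgeR 4.0.16 and DESeq2 1.42.0 on the recovered reads, other scalings, filters and pseudocounts, each library left out and a replicate block. Genes were matched by symbol to RefSeq starts and gene bodies of GRCh38.p14, the build of the peak coordinates. Named by rule were the called gene peaks with the largest differences (10 per direction, and 6 per direction at 20 CPM or more), up to 3 called members of each list past 2-fold, the genes with most called distal peaks (5 per direction), the 5 strongest peaks per direction and a set of drug response genes; other list members were named after their values were seen. The gene lists and the comparison were chosen with earlier results of these data known. No peak sequences were read, since no genome was used here. Results of a few genes are not reported here.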

Additional observations from a re-analysis of the deposited data

How the results depend on the processing

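The 12864 higher and 8561 lower peaks, and 715 higher and 2408 lower gene peaks, kept their side within 1.5-fold under the other pseudocounts and filters, the fit of 4 libraries and edgeR without TMM. Lower gene peaks numbered 1397 after quantile scaling, 1309 after cyclic loess scaling, 3741 after median-ratio scaling and 4130 in edgeR. DESeq2 called 6659 peaks and 423 gene peaks higher. Among peaks named for a single-resistant library, an alternative chosen after seeing the data, 3502 peaks and 320 gene peaks were higher. In that set 6859 peaks and 2132 gene peaks were lower, so the majority direction of all peaks turned. With 1 library left out, and the lone library assumed to vary like the other groups, the counts ranged from 6684 to 9305 higher and 5153 to 6402 lower peaks, and from 470 to 531 higher and 1192 to 1813 lower gene peaks. With 5 Mb window medians subtracted, SPRED1 turned from -0.59 to 0.24 (adjusted p 0.227) and SPTBN1 from 0.05 to -1.30 (adjusted p 6.88e-12); the subtraction itself removes the shift of their windows. The other named genes kept their direction in the alternatives run, and with 1 library left out 6 to 8 of 128 were no longer called. The median of all peaks was 0.08 on deposited CPM and 0.112 with window medians subtracted. The replicate numbers did not pair the libraries (correlation of deviations -0.000556), and with the replicate block 13022 peaks were higher and 8656 lower, and 713 gene peaks higher and 2411 lower. Depth limits low peaks, where 3 reads stand for 0.322 to 0.390 CPM. The simulated reads held few changed peaks and none under a mean of 3 CPM. They do not show how often 2-fold changes were missed in the data.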

Other observations

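MicroRNA genes were tested through the peaks within 1 kb of their RefSeq hairpins. Of 1560 hairpins 623 had a tested peak, and these 579 distinct peaks included 26 higher (4.49%) and 47 lower (8.12%), beside 8.11% and 5.39% of all peaks and 4.55% and 15.3% of gene peaks. The share of called peaks that were higher differed between chromosomes, from 23.7% on chromosome 19 to 73.2% on chromosome 3. It fell with level, from 80.3% of the called peaks with a mean under 2 CPM to 8.10% of those at 50 CPM or more.

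Genes of NF-kB and inflammatory signalling had 8 of 21 gene peaks lower and 2 higher (5 and 1 after cyclic loess scaling). TRAF1, a signalling adaptor of TNF receptors, rose from 0.520 and 0.901 CPM to 11.7 and 11.8 CPM, beside 11.2 CPM in paclitaxel-resistant cells. CXCL2, a neutrophil chemokine, fell from 10.7 and 14 CPM to 4.08 and 4.30 CPM. The lower count was 2 without control library 1, 4 without control library 2 or dual-resistant library 1 and 3 without dual-resistant library 2. Chromatin regulators had 9 of 40 lower and 1 higher, and 1 lower without control library 1 or dual-resistant library 1, 5 without dual-resistant library 2, 5 after cyclic loess and 16 after median-ratio scaling. Targets of p53 had 7 of 25 lower and 2 higher, which turned to 2 lower and 3 higher after quantile or cyclic loess scaling, and 2 and 2 without control library 1. CDKN1A, the cell cycle inhibitor p21, held 19.8 and 18.9 CPM in control and 20.8 and 22.1 CPM in dual-resistant libraries and did not pass the test.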
